A study of Mus musculus with 9 samples.

Results

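Bone marrow cells from wild type B6 mice that lacked the leukocyte antigen CD45 and the erythroid antigen Ter119, carried the endothelial antigen CD31 and did not stain for Sca-1 were profiled by bulk RNA sequencing in 5 libraries. They were chosen by their label, Sca-1- endothelial cells, and are 5 of the 9 libraries in the count table. The other 4 came from the Sca-1+ fraction of wild type B6 marrow. The study treated the Sca-1+ cells as lining arterioles and those with little Sca-1 as lining sinusoids. The labels name no treatment or mutation for either group, and the gate is all that selects the cells, with no further purification stated. The libraries are called 8, 10, 14, 16 and 22 after the number that ends each title. Each title opens with another number, and these numbers form separate runs in the Sca-1- and Sca-1+ libraries. Fraction and run therefore cannot be told apart. Prefix here means the code that follows the opening number. The titles of 14 and 22 share a prefix with Sca-1+ library 13. The title of 16 shares one with Sca-1+ library 15, and those of 8 and 10 share none. What the opening numbers and prefixes mark is not stated.

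CD31, encoded by Pecam1, is an adhesion molecule of endothelial junctions that is also carried by megakaryocytes, platelets and some leukocytes. Megakaryocytes are the large marrow cells that shed platelets. They sit against sinusoids and make platelet receptors (the von Willebrand factor receptor GPIb-IX-V and the fibrinogen receptor αIIbβ3), alpha-granule cargo and a ring of beta-1 tubulin. Marrow endothelium is instead defined by junction and receptor genes such as Cdh5, Kdr and Tie1, with Stab1, Stab2 and Flt4 as sinusoidal genes, and the stroma around it by collagens, Cxcl12 and Lepr.

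The deposited table holds 46078 genes. The 5 libraries held 21581653 to 25959818 counts each, and 13269 genes had over 3 counts in every library, of which 11314 are annotated as protein coding. Levels are in CPM, each library's counts rescaled to a common total, with factors from the trimmed mean of M values (TMM) over the 5 libraries, and are listed in the order 8, 10, 14, 16 and 22. This scaling shifted all genes of a library by 0.38, 0.55, -0.17, -0.39 and -0.37 on the log2 scale against plain CPM, so that levels in 8 and 10 were raised and those in 14, 16 and 22 lowered. No pair of libraries agreed within sampling noise, with a chi-square per degree of freedom of 115.0 to 585.0, where the noise covers counting error only and reads were amplified without molecular identifiers. Spearman's rank correlation across genes was highest for 8 with 10 (0.941), 16 with 22 (0.940) and 14 with 22 (0.937), and lowest for 10 with 16 (0.852). The labels do not say whether each library is a separate mouse, so the SD given over the 5 libraries is the spread between these samples.

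The genes of the sort were checked first, as TMM-scaled CPM like every level below unless plain CPM is named. Pecam1 (CD31) stood at 1105, 1445, 405, 296 and 367 CPM, a mean of 724 ± 519 (SD, n = 5). Ly6a, the gene of Sca-1, had only 4, 13, 10, 45 and 8 counts in the libraries. Ptprc, which encodes CD45, was at 15, 19, 15.2, 42.3 and 34.9 CPM. The gene of CD31 was high and that of Sca-1 near the floor of 3 counts, while a low level of Ptprc, whose product the gate excluded, was counted in each library and was highest in 16.

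The label's cell type was checked against endothelial markers, and the data went against it. The 25 endothelial genes had a median of 3.80 CPM per kb of exon, and together took 0.10% to 0.135% of the counts. Cdh5, the VE-cadherin of endothelial junctions, was at 6.45, 2.08, 4.74, 11.6 and 6.44 CPM. The 20 megakaryocyte genes had a median of 787 CPM per kb and took 3.91% to 8.40% of the counts. That list was chosen with earlier results known and holds high genes only, with a lowest mean of 401 CPM. Its distance from the endothelial list therefore depends on the choice of genes. A list of 12 transcription factors of the megakaryocyte lineage had a median of 9.92 CPM per kb. The 5 genes given as markers of the fraction (Itgb3, Slamf1, Pecam1, Thbs1 and Gata2) are all known in megakaryocytes or their progenitors, and stood at a median of 136 CPM per kb. Pecam1, Thbs1 and Gata2 are known in endothelium as well. As they were given for this same fraction, their level is no independent evidence of its cell type. Because the endothelial genes were low, the cells are called the Sca-1- CD31+ fraction here. In a bulk library, fewer cells of a type and less RNA per cell cannot be told apart.

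The counts were concentrated in few genes, and more so in libraries 8 and 10. Each library's own 100 highest genes held 26.9 to 40.5% of its counts, and the 20 highest 13.3 to 21.9%. Adding genes from the highest down, 50% of the counts were reached after 193 to 637 genes. Libraries 8 and 10 needed the fewest genes (193 and 202), library 14 lay between (409), and libraries 22 and 16 needed the most (607 and 637). Ranked by mean CPM over the 5 libraries, the top 20 genes held 13 to 21.9% of the counts. The libraries shared much of the top: 62 genes were in the own top 100 of all 5, and 147 were in the top 100 of at least 1. Library 16 alone had the basophil proteases Prss34 and Mcpt8 in its top 100, with Spp1 (osteopontin), Fos and Ccl6, and library 10 alone had the ADP receptor P2ry12. Mitochondrially encoded genes held 0.0963% to 0.182% of the counts and ribosomal protein genes 0.172% to 0.693%.

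**Figure D1:**
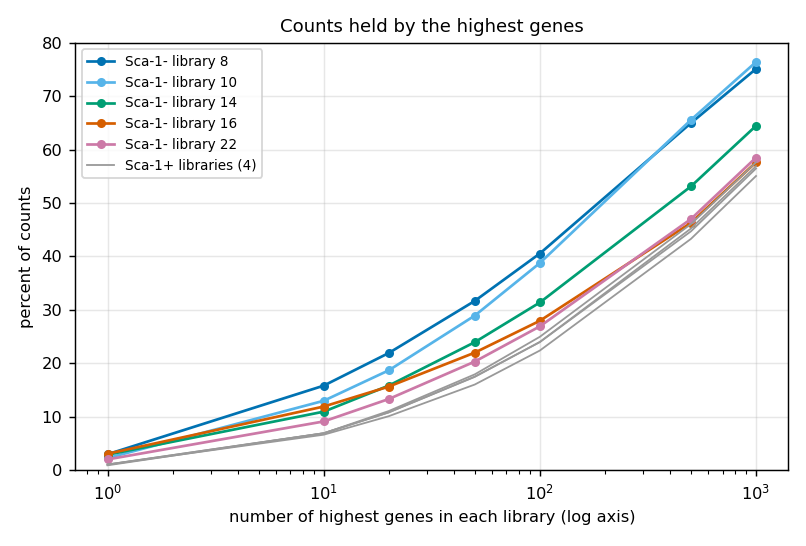
Percent of each library's counts (vertical axis) held by its own 1 to 1000 highest genes (horizontal log axis), for the 5 Sca-1- libraries (coloured points) and the 4 Sca-1+ libraries (grey lines). At 100 genes, libraries 8 and 10 reach 40.5% and 38.8%, library 14 reaches 31.4%, and libraries 16 and 22 reach 27.9% and 26.9%.

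The 20 genes with the highest mean CPM were, in order, Tmsb4x, Malat1, Ppbp, Tsc22d1, Itga2b, Col1a1, Gm37376, Rap1b, Tubb1, Actb, Nrgn, Pf4, Cd9, Alox12, Tpm4, Plek, Col1a2, Ctla2a, Mkrn1 and Zyx. Of these, 6 were in a megakaryocyte list, 1 (Cd9) in the list of genes that endothelium and megakaryocytes share, 2 (the collagens Col1a1 and Col1a2) in the stromal list and none in an endothelial list. Among the 100 highest genes, 24 of the 58 megakaryocyte list genes were present, against 0 of the 53 endothelial, sinusoidal and arteriolar genes. The first endothelial list gene was Myct1 at rank 360, followed by Plvap at 866. Of the rest of the top 100, 69 genes were in no list.

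Tmsb4x, which encodes the actin-binding peptide thymosin beta-4 that is plentiful in platelets, led at 38592, 32953, 25656, 15132 and 15465 CPM. Ppbp, the precursor of platelet basic protein, was at 18609, 18615, 14441, 6441 and 9138 CPM. Itga2b, the αIIb chain of the fibrinogen receptor, was at 16008, 19778, 7199, 4906 and 5806 CPM. All of these were higher in 8 and 10 than in 16 and 22, by TMM and by plain CPM. Rap1b, a small GTPase that activates integrins, stood at 10669.7, 14990.5, 6880.5, 3070.4 and 5108 CPM. Tubb1, the beta-1 tubulin of the platelet ring, stood at 11076, 17526, 5310.3, 2326 and 3897 CPM. Tsc22d1, a leucine zipper protein, stood at 21282, 21466, 8108, 4116 and 6383 CPM. For each of these 3 genes the libraries fell in the order 10, 8, 14, 22 and 16 from highest to lowest, with 8 and 10 exchanged for Tsc22d1 by plain CPM.

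Other genes of the top 20 did not share that order. Malat1, a nuclear long noncoding RNA, was at 38276, 31378, 10346, 23349 and 4674 CPM. Library 16 was above 14, and 22 was lowest. Gm37376 lies antisense within Malat1 on chromosome 19 and had 15108, 12750.0, 3906, 8897 and 1931 CPM. Since the kit does not mark strand, the reads of these genes cannot be told apart. Col1a1, the alpha-1 chain of type I collagen, was at 24062, 5447, 1783, 11472 and 10406 CPM, and Col1a2, the alpha-2 chain, at 11400.5, 2285, 813, 4867 and 5094 CPM, with library 14 lowest for both. Of the 20 genes, 14 were lowest in library 16, also by plain CPM, and 7 share exon sequence with a gene on the other strand. Of the 100 highest genes, 78 were lowest in library 16 (73 by plain CPM), and 99 were highest in 8 or 10 (77 by plain CPM).

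**Figure D2:**
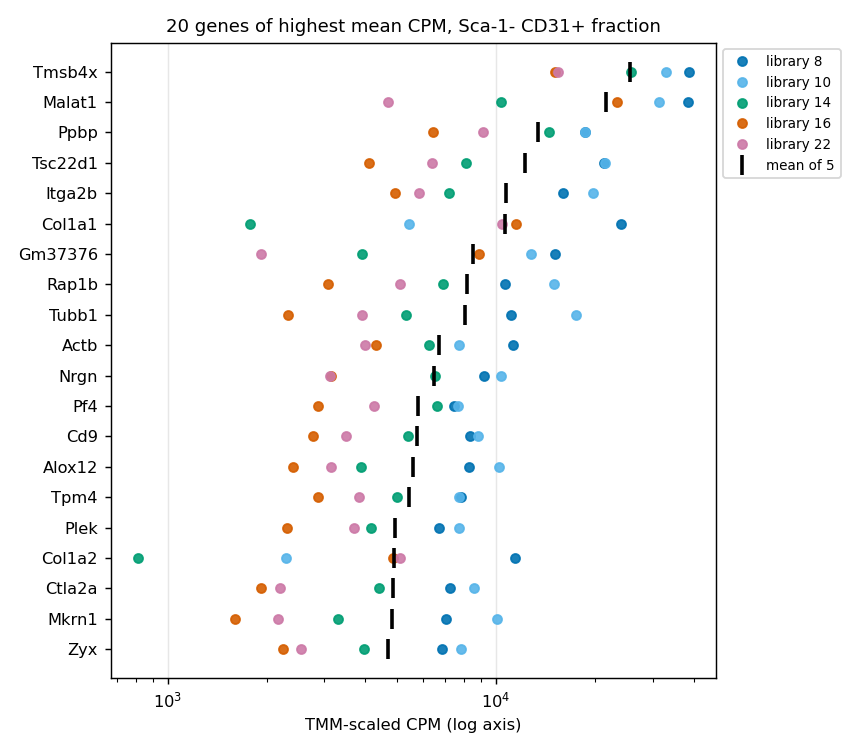
TMM-scaled CPM (horizontal log axis) of the 20 genes with the highest mean, with 1 point for each of the 5 Sca-1- libraries and a black bar at the mean. Library 16 is the lowest point for 14 of the 20 genes, while for Col1a1 and Col1a2 library 14 is lowest, at 1783 and 813 CPM.

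Divided by the annotated exon length, the 10 highest genes were Gm37376, Tmsb4x, Ppbp, Pf4, Tubb1, Nrgn, Myl9, Malat1, B2m and Rap1b. Ppbp had 12418 CPM per kb and Pf4, the chemokine platelet factor 4, 8002. Both chemokine genes lie side by side on mouse chromosome 5, Ppbp at chr5:90768518-90770063 and Pf4 at chr5:90772435-90773383 (GRCm38). Myl9, the myosin light chain of contracting platelets, had 3206 CPM per kb, and Nrgn, a calmodulin-binding protein known in neurons and platelets, 4442. B2m, the light chain of MHC class I, had 2976 CPM per kb.

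The promoters of megakaryocyte genes are shown because these genes moved together across the libraries, as given below. GATA1 and the ETS proteins are transcription factors of this lineage, and their DNA words are known beside each other in megakaryocyte promoters. The 250 bases before the start site were searched on both strands for a GATA word, the letters GATA with A or T before them and A or G after them, and for an ETS word, the letters GGAAG with A or C before them. The words are not parts of each other, and no match overlapped another in the promoters shown. Of the 20 megakaryocyte genes, 16 had a promoter in the RefSeq table (GRCm38.p6). A GATA word was found in 7 of these and an ETS word in 9, and both in 4 (Gp5, Gp1bb, Gp1ba and F2rl2). Over all 27025 promoters of the table, 27.1% held a GATA word, 39.0% an ETS word and 9.38% both. Of the 25 endothelial list genes, 14 had a promoter in the table, of which 1 held a GATA word, 8 an ETS word and 0 both. Below is the promoter of Ppbp, the highest gene of the list, in which neither word was found. It is followed by those of Gp5, Gp1bb and Gp1ba, 3 subunits of the von Willebrand factor receptor. The promoter of Gp9, the remaining subunit, held 0 GATA words and 1 ETS word and is not shown. Bases run 5′ to 3′ on the gene's strand, and capitals mark the GATA and ETS words or their reverse complements. Ppbp is at chr5:90768268-90768517 (plus strand), Gp5 at chr16:30310782-30311031 (minus), Gp1bb at chr16:18622404-18622653 (minus) and Gp1ba at chr11:70638872-70639121 (plus). A match of letters is a description and not a measured binding site.
Ppbp: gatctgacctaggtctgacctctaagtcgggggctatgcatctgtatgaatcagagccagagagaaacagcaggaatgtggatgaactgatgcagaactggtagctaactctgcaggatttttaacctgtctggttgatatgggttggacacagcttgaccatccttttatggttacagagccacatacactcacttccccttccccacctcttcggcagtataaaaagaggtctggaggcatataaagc
Gp5: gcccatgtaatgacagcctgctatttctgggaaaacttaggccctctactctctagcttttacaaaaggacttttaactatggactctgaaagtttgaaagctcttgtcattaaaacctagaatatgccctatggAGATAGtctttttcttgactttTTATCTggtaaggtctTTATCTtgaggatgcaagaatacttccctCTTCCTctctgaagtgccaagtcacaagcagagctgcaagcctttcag
Gp1bb: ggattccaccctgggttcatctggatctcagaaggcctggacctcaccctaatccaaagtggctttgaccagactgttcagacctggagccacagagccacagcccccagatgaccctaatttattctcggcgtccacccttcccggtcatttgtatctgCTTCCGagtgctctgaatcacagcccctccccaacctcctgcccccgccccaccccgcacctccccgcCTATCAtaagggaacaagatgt
Gp1ba: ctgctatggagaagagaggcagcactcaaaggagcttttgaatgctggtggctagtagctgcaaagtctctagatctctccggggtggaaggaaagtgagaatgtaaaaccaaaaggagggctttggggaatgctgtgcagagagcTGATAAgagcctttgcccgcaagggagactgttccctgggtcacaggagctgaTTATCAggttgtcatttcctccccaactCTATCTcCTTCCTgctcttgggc

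Platelet receptors were high as a group, and every one was lowest in the same library. All 16 genes of the receptor list had over 3 counts in every library, 11 had a mean of at least 1000 CPM, and all 16 were lowest in library 16, where 20.3% of all genes over 3 counts in every library had their lowest value (also 16 of 16 by plain CPM, beside 11.8%). For the GPIb-IX-V complex, Gp5 stood at 5551, 7766, 2814, 1207 and 1806 CPM, with 1743 CPM per kb. Gp1bb stood at 3443, 2802, 2377, 1229 and 1391 CPM, with 1077 CPM per kb. Gp1ba, the chain that binds von Willebrand factor and whose promoter above holds 3 GATA words, stood at 2863, 4339.5, 1446, 542 and 893 CPM, with 742 CPM per kb. Gp9 completed the complex at 983, 711, 492, 289 and 335 CPM, with 638 CPM per kb. All 4 subunits were higher in 8, 10 and 14 than in 16 and 22. The size of the change was not equal, from 2.80-fold between highest and lowest library for Gp1bb to 8.01-fold for Gp1ba.

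The fibrinogen receptor joins Itga2b with Itgb3, the β3 chain. Itgb3 was at 2569, 2689, 674, 453 and 907 CPM, a mean of 1458 ± 1082 (SD, n = 5). Per kb of exon Itgb3 had 247 CPM against 1969 for Itga2b. Clec1b, the podoplanin receptor CLEC-2, was at 3441, 4582, 1996, 904 and 1077 CPM. Gp6, the collagen receptor, was at 591, 786, 315, 116 and 197 CPM, and P2ry12, the ADP receptor, at 1553, 2395, 780.2, 325 and 577 CPM. Clec1b, Gp6 and P2ry12 followed the order of Itga2b, while Itgb3 was higher in 22 than in 14. Between its highest and lowest library P2ry12 varied 7.36-fold.

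Alpha-granule genes were less uniform. The 16 genes of the granule list include Gfi1b, which is counted again among the transcription factors below. Of these 16 granule genes, 13 were lowest in library 16 (10 by plain CPM), beside 20.3% of all genes (11.8% by plain CPM). Pf4 stood at 7445, 7679, 6592, 2872 and 4261 CPM and Clu, the chaperone clusterin, at 4280.4, 4272, 2989.9, 1411 and 1927 CPM, with 8 and 10 nearly equal in each. By plain CPM library 14 was highest for Ppbp, Pf4 and Clu. Sparc, a matrix protein carried by alpha granules and also made by stroma, was 1 of the 3 that were not, at 5399, 875, 593, 2595 and 1856 CPM, with the order of Col1a1 by TMM. Nbeal2, a protein of granule formation, was lowest in 22, at 318, 196, 78.3, 218 and 37.6 CPM. Serpine2, a thrombin inhibitor, varied only 1.54-fold, at 1198, 1117, 1033, 777 and 1041 CPM, and by plain CPM was lowest in 10. The granule list as a whole was highest in library 8 by TMM, upper quartile and plain CPM and in library 10 by DESeq2 size factors, and lowest in 16 by all 4.

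Genes of the cytoskeleton and platelet enzymes followed the receptors. Of 16, 14 were lowest in library 16 by TMM and by plain CPM, beside 20.3% and 11.8% of all genes. Gp1bb, already counted among the receptors, is in this list too and is among the 14. Alox12, platelet 12-lipoxygenase, stood at 8285, 10198, 3884, 2413 and 3139 CPM. Plek, the protein kinase C substrate pleckstrin, stood at 6721, 7714, 4150.1, 2309 and 3702 CPM. Fermt3, the integrin activator kindlin-3, stood at 5883, 7587, 3026, 2356 and 2779.9 CPM, and its exons overlap Trpt1 on the other strand. All 3 were highest in 10 and lowest in 16.

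Transcription factors of the lineage split. Nfe2, which drives platelet release, was at 3131, 5675, 1758, 855 and 1011 CPM, Gata1 at 1323, 2203, 827, 445 and 515 CPM and Gfi1b, a repressor needed by megakaryocytes and red cells, at 524, 1039.7, 500.04, 302 and 330.3 CPM. Each was highest in 10 and lowest in 16. Runx1, which acts in many blood lineages, varied 1.57-fold and Mef2c 2.21-fold. Of the 12 factors, 7 were lowest in library 16 (4 by plain CPM), beside 20.3% of all genes (11.8% by plain CPM). By plain CPM the list's level was highest in library 22 and lowest in library 8.

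Of the endothelial list, 24 of 25 genes had over 3 counts in every library. Only 3 had a mean of at least 100 CPM (Myct1, Plvap and Tspan18), and none reached 1000. Most were lowest in library 10: 16 of 24 (19 by plain CPM), where 23.9% of all genes were lowest (42.4% by plain CPM). Plvap, the protein of the diaphragms in fenestrated endothelium, stood at 123, 99.2, 145, 331 and 239 CPM. Cldn5, the tight junction claudin, stood at 91.9, 14.8, 64, 80.1 and 83.5 CPM. S1pr1, the sphingosine phosphate receptor, stood at 42.9, 12.4, 40.8, 57.4 and 62.8 CPM. Library 10 was the lowest for each of these. Ecscr, an endothelial surface protein, was at 37.4, 9.19, 42.1, 34.3 and 41.3 CPM. Emcn (endomucin), which the study names, was at 12.3, 3.62, 24.5, 21.4 and 22.3 CPM. Tie1, an angiopoietin co-receptor, varied less, at 77.4, 48, 49.4, 60.6 and 85.5 CPM.

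Several genes of this list did not share the pattern. Kdr, the VEGF receptor 2, was lowest in 8, at 38.2, 76.3, 46.5, 50.4 and 51.4 CPM, and highest in 10 by TMM but in 22 by plain CPM. Myct1 was at 582, 999.2, 324, 113 and 173 CPM, and Tspan18, a tetraspanin, at 141, 224, 59.4, 40.0 and 44.9 CPM. Myct1 and Tspan18 were highest in 10 and lowest in 16, as the megakaryocyte genes were, also by plain CPM. The summed CPM of the 25 genes, which included Myct1, was 1306, 1548, 948, 1016 and 1043. By this sum library 10 was highest and 14 lowest, and by plain CPM 22 was highest and 8 lowest.

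Sinusoidal genes were low, with a median of 1.20 CPM per kb. The scavenger receptor Stab2 stood at 2.88, 2.73, 3.17, 36.3 and 8.62 CPM and Flt4, the VEGF receptor 3, at 26, 1.90, 17, 20.5 and 32.7 CPM. Stab2 was several times higher in 16 than in any other library, while Flt4 was low in 10. Lyve1, a hyaluronan receptor of lymphatic and sinusoidal endothelium, stood at 114, 32.8, 76.9, 71.7 and 126 CPM. Il1a, a cytokine in this list, stood at 103, 189, 110.5, 37 and 61 CPM and was highest in 10. Of the 11 genes over 3 counts in every library, 7 were highest in 16 and 6 lowest in 10, also by plain CPM. Among all genes 22.1% were highest in 16 (34.5% by plain CPM) and 23.9% lowest in 10 (42.4% by plain CPM). The list's level was highest in 16 and lowest in 10 under all 4 scalings. Its summed CPM differed less, at 280, 241, 237, 251 and 276, highest in 8 and lowest in 14. In library 10, 189 of the 241 CPM came from Il1a, so the sum does not show that the other members were even. By plain CPM the sum was highest in 22 and lowest in 10.

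Arteriolar genes were lower still, with a median of 0.561 CPM per kb, and 9 of 16 had over 3 counts in every library. Cav1, the coat protein of caveolae, stood at 149, 28.5, 117, 99.9 and 191 CPM and Fbln5, an elastic fibre protein, at 46.8, 15.1, 42.7, 38.7 and 37.6 CPM, both lowest in 10. Gja4, the connexin 37 gene, stood at 8.44, 1.07, 2.54, 8.29 and 11.8 CPM. Nrp1, a semaphorin and VEGF co-receptor, stood at 6.03, 3.26, 0.709, 14.3 and 6.55 CPM. Gkn3 and Sema3g had at most 3 counts in every library, the floor used here, which corresponds to 0.0882 to 0.178 CPM.

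The 20 genes known in both endothelium and megakaryocytes were not uniform. By TMM 11 were lowest in library 16, beside 20.3% of all genes, and by plain CPM also 11, beside 11.8%. In library 10, 5 were lowest by TMM and 6 by plain CPM, a share near or below that of all genes (23.9% and 42.4%). Thbs1, the alpha-granule and matrix protein thrombospondin-1, was at 3831, 5347, 1402, 700.2 and 1311 CPM. Esam, a junction molecule, was at 1109.6, 2019, 715, 268 and 344 CPM. Vwf, the von Willebrand factor that both cell types store, was at 1141, 1021, 465, 279 and 471 CPM. Pecam1, Thbs1, Esam and Vwf were higher in 8 and 10 than in the other 3 libraries. Cd9, a tetraspanin, was at 8307, 8803, 5404, 2762 and 3490.5 CPM and Mmrn1, the granule protein multimerin-1, at 2415, 2886, 1331, 856 and 1669 CPM. Fli1, an ETS factor of both lineages, was at 381, 619.7, 248.7, 129.7 and 262 CPM. Gata2, a factor of progenitors and endothelium, was at 810.3, 1551, 449, 559 and 290.3 CPM and was lowest in 22.

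Other shared genes were lowest in 10 or 8 by TMM, and in 10 by plain CPM. Egfl7, the host gene of miR-126 that the study follows, was at 34.1, 8.78, 25.1, 32.7 and 50.7 CPM. Its counts are of the host gene's exons, which overlap Agpat2 on the other strand, and are not a measure of the miRNA. Cd34, a sialomucin of endothelium and progenitors, was at 22, 9.43, 16.3, 19.1 and 41.5 CPM and Eng, the TGF-beta co-receptor endoglin, at 14.7, 15, 39, 37.9 and 38.6 CPM. Cd36, a scavenger receptor, was at 4.19, 2.79, 5.18, 37.2 and 16.3 CPM and was highest in 16. The list's level ranged by 0.81 on the log2 scale, highest in 10. By upper quartile it was highest in 8, and by plain CPM its order turned and 10 was the lowest, so no order is read from it.

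The other genes that the study names were low. Spred1, the RAS inhibitor that is a target of miR-126, stood at 10.6, 11.9, 7.23, 6.29 and 14.1 CPM. The TNF receptors Tnfrsf1a and Tnfrsf1b stood at 9.23, 6.52, 10.2, 25.3 and 15.8 and at 2.41, 9.91, 4.62, 9.06 and 8.98 CPM. Vcam1, an adhesion molecule of sinusoids and stroma, was highest in 16, at 19.1, 1.72, 9.66, 27.1 and 9.30 CPM. Tnf, the cytokine itself, was at 1.47, 1.36, 1.23, 0 and 3.69 CPM. Slamf1 (CD150), a marker of the fraction known on stem cells and megakaryocytes, was at 677, 1113, 374, 150.4 and 222 CPM, in the order of the receptors.

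Stromal genes were led by type I collagen, and their libraries ordered differently from both groups above. Of 17 genes over 3 counts in every library, 14 were highest in library 8 (6 by plain CPM), where 14.4% of all genes were highest (7.13% by plain CPM). Dcn and Lum, small proteoglycans of fibrous matrix, stood at 484, 64.7, 25.2, 273 and 107 and at 333, 45.1, 14.7, 113 and 79.5 CPM. Col3a1 stood at 175, 24.4, 1.27, 51.6 and 50.2 CPM. Postn (periostin) stood at 71.7, 7.89, 4.47, 48.1 and 7.12 CPM. These genes, with Col1a1 and Col1a2, were lowest in library 14, also by plain CPM.

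The reticular stromal genes of the same list had another order. Cxcl12, the chemokine that retains blood progenitors, was at 246, 67.5, 242, 146 and 46.3 CPM. Igfbp5, a binding protein of insulin-like growth factors, was at 56.8, 12, 37.6, 26.1 and 43.5 CPM and Lepr, the leptin receptor of perivascular stroma, at 39.4, 8.90, 18.4, 15.9 and 31.3 CPM. Adipoq (adiponectin) was at 17.1, 7.53, 34.2, 16.2 and 4.83 CPM and highest in 14, and Lpl, lipoprotein lipase, was at 28.5, 12.2, 34.4, 24 and 10.2 CPM. These 5 genes were lowest in 10 or 22 by TMM, and in 10 by plain CPM. The ratio of Col1a1 to Cxcl12 counts was 97.8, 80.7, 7.37, 78.3 and 224.7, which does not depend on the scaling. Library 14 was over 10-fold below each other library. The list's highest library was 8 by 3 scalings and 16 by plain CPM, and its lowest was 14 by TMM and DESeq2 and 10 by upper quartile and plain CPM.

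Osteoblast and osteocyte genes had the pattern of the collagens. Of 10 over 3 counts in every library, 10 were lowest in 14 and 9 highest in 8, beside 16.7% and 14.4% of all genes. By plain CPM 5 were lowest in 14 and 5 in 10, beside 10.8% and 42.4% of all genes. By plain CPM 5 were highest in 8, beside 7.13%. The list's level was highest in 8 and lowest in 14 under all 4 scalings. Ibsp, the bone sialoprotein, stood at 1961, 695, 429, 1347 and 832 CPM. Dmp1, of osteocytes, stood at 1155, 375, 52.2, 602 and 694 CPM. Bglap and Bglap2, near-identical osteocalcin genes between which reads can be split, stood at 614, 77.6, 18.9, 308 and 118 and 280.1, 43.4, 9.14, 143 and 59.3 CPM. Smooth muscle and pericyte genes were low, with 5 of 12 over 3 counts in every library. Tpm2 stood at 634, 466, 440.4, 237 and 281 CPM, Acta2, which the study names, at 13.4, 0.652, 14, 9.94 and 3.11 CPM and Tagln at 5.98, 4.21, 8.88, 6.47 and 8.80 CPM. The pericyte channel gene Kcnj8 was at 2.99, 1.48, 0, 25.8 and 7.34 CPM.

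Set side by side, the 3 groups were ordered differently across the libraries. The megakaryocyte level, the mean log2 CPM of the 20 genes, was 11.66, 11.92, 10.81, 9.81 and 10.33, a mean of 10.91 ± 0.89 (SD, n = 5). The endothelial level was 3.94, 2.79, 3.97, 4.44 and 4.48, a mean of 3.92 ± 0.68. The stromal level was 5.57, 3.15, 3.14, 4.87 and 4.24, a mean of 4.2 ± 1.07. From highest to lowest, the megakaryocyte order was 10, 8, 14, 22 and 16 under each of the 4 scalings. The endothelial level was lowest in 10 and highest in 22 under each, with 22 and 16 close to each other, while the summed CPM of the list was highest in 10, as given above. All 20 megakaryocyte genes were lowest in 16, also by plain CPM, beside 20.3% of all genes (11.8% by plain CPM), and 16 of 20 were highest in 10 (13 by plain CPM), beside 26.2% of all genes (11.9% by plain CPM). Each of these 20 genes is also in the receptor, granule, cytoskeleton or factor list above, so these counts repeat genes already given. Members of those lists with another order, such as Sparc and Nbeal2, are not among the 20.

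The difference between the megakaryocyte and endothelial levels hardly depends on the scaling. It was 7.72, 9.13, 6.84, 5.37 and 5.85 on the log2 scale, a range of 3.76. Without library 10 this range fell to 2.35, and with log2 of the summed CPM of each list, which the highest genes decide, it fell to 1.44. The difference between the stromal and endothelial levels was 1.63, 0.36, -0.83, 0.43 and -0.24, a range of 2.46. Without library 8 that range fell to 1.26. With 5 libraries no correlation between the lists was computed.

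**Figure D3:**
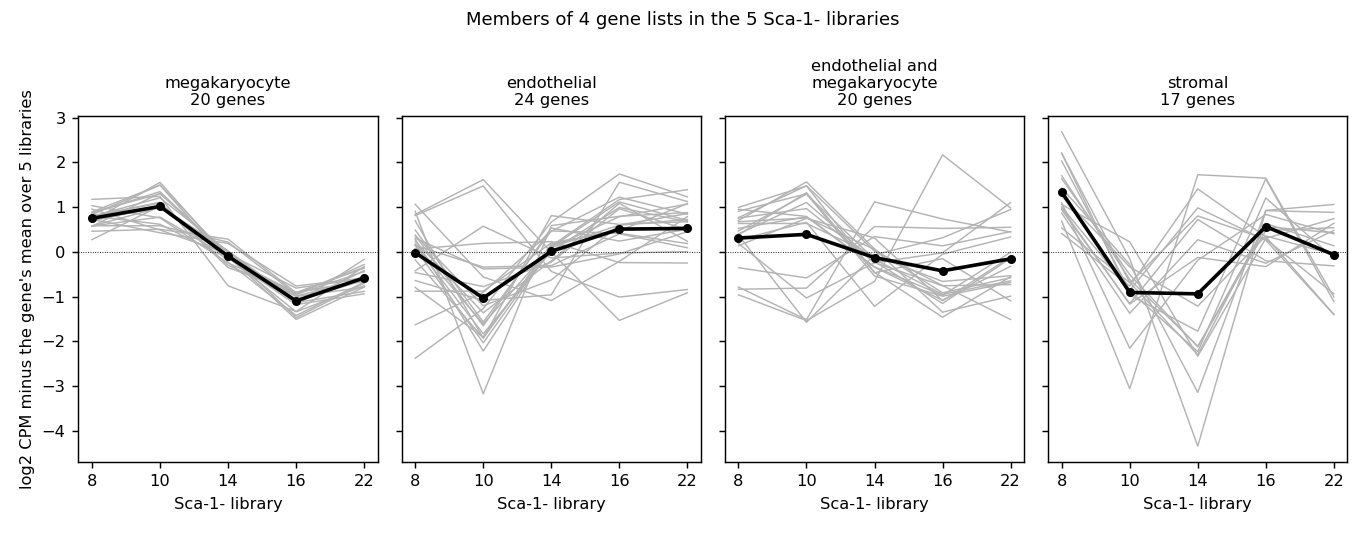
Log2 CPM of each gene minus its own mean over the 5 libraries (vertical axis) for the members of 4 lists with over 3 counts in every library. Grey lines join the values of 1 gene, black points are the list mean, and the libraries have no order. All 20 megakaryocyte genes are lowest in 16, 16 of 24 endothelial genes are lowest in 10, and the shared and stromal genes differ among themselves.

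Markers of other blood lineages were counted although CD45+ and Ter119+ cells were gated out, and several lineages stood out in 1 library. Basophil and mast cell genes were the most uneven: all 11 over 3 counts in every library were highest in 16, also by plain CPM, beside 22.1% of all genes (34.5%). Prss34 was at 37.6, 120.05, 951, 7346 and 117 CPM. Mcpt8 was at 13.1, 44.8, 434, 2828 and 35.5 CPM. Fcer1a, the IgE receptor alpha chain, was at 1.47, 23.1, 71.7, 375 and 6.55 CPM, and Hdc, the histamine-making enzyme, at 19.1, 61.7, 68, 381 and 18.5 CPM. The proteases Prss34 and Mcpt8 mark basophils, while Fcer1a and Hdc are shared with mast cells. The connective tissue mast cell proteases Mcpt4 and Tpsb2 had 0 counts. The list held 1.6% of the counts in 16 and 0.00698% to 0.193% in the others. Library 16 was also the lowest in megakaryocyte genes, and the part of the basophil and mast cell genes in that result was not tested.

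B cell genes were highest in library 22 for all 8 genes over 3 counts in every library, also by plain CPM. Among all genes 20.2% were highest there (32.2% by plain CPM). Cd79b, of the B cell receptor, was at 10.4, 5.10, 29.3, 17.1 and 79.2 CPM. Blnk was at 2.57, 0.830, 13.9, 7.88 and 57 CPM and Cd79a at 4.14, 1.19, 11.7, 6.73 and 49.5 CPM. Library 10 was lowest for each of these. The list's genes held at most 0.0439% of the counts. T and NK cell genes were near the floor, with Cd3d, Cd8a and Gzma at or under 3 counts in every library. Lat, an adaptor of T cells and platelets, was the exception at 482, 590.2, 369, 311 and 290.4 CPM, and Nkg7 was at 15.3, 19.5, 65.6, 31.1 and 44.7 CPM and Cd2 at 3.51, 1.36, 3.21, 1.35 and 8.09 CPM. The T cell kinase gene Lck was at 1.15, 0.534, 1.23, 1.09 and 1.11 CPM.

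Red cell genes divided. Car1, carbonic anhydrase 1, was at 266, 289, 1185, 1653 and 505 CPM, and Klf1, the erythroid factor, at 53.1, 57.4, 171, 233 and 93 CPM, both higher in 14 and 16 than in 8 and 10. Hba-a1 was at 822, 1346, 476, 239 and 241 CPM and Hbb-bs at 319, 191, 35.7, 40.6 and 58.1 CPM, both higher in 8 and 10. Globin genes have near-identical copies, so their single values are uncertain. Neutrophil genes divided likewise. Mpo, of early granules, was at 83.5, 110.4, 526, 84.3 and 141 CPM and Elane at 17.4, 7.71, 109, 7.76 and 29.8 CPM, both highest in 14. Ngp, of later granules, was at 118, 36.7, 0.970, 0.412 and 34.3 CPM and S100a9 at 77.6, 20.9, 5.71, 15.1 and 12.2 CPM, both highest in 8. Monocyte and macrophage genes were low except Lyz2, the lysozyme gene, at 2126, 2011, 1427, 684 and 928 CPM. Ccr2 stood at 7.55, 5.52, 13.6, 50.4 and 0.966 CPM and Cd14 at 5.09, 4.15, 20.2, 6.53 and 6.01 CPM.

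The remaining blood lists were mostly low. The eosinophil gene Prg2 was at 209.6, 0.534, 18.5, 0 and 22.4 CPM and Epx at 22.9, 0, 0.186, 0 and 2.86 CPM, both highest in 8, with Ccr3 at 9.91, 5.22, 2.05, 14.8 and 3.22 CPM and Siglecf at 3.78, 7.53, 2.76, 6.23 and 1.86 CPM. Of the plasmacytoid list, the transcription factor gene Tcf4 was at 77.5, 35.3, 49.5, 86.6 and 77.5 CPM and Irf8 at 17.5, 10.6, 21.4, 17.4 and 27.9 CPM, Lair1 at 0.629, 0.119, 8.73, 4.76 and 1.90 CPM and Pacsin1 at 5.82, 3.74, 0, 1.65 and 2.93 CPM, and Klk1 was at the floor. Of the plasma cell list, Xbp1, which many secretory cells use, was at 207, 259, 204, 220.2 and 211 CPM, Sdc1 at 9.33, 3.02, 6.04, 12.2 and 11.6 CPM, Pou2af1 at 2.2, 0.237, 1.79, 1.09 and 22.7 CPM and Mzb1 at 0.419, 0.119, 4.44, 0.235 and 10.7 CPM, and Tnfrsf17 was at the floor. Pan-leukocyte genes were higher. Of the 16, 9 were highest in 16 (10 by plain CPM), beside 22.1% of all genes (34.5%), and the list was highest in 16 under all 4 scalings. Lcp1, Tyrobp and Cd53 were chosen after their values were seen. Lcp1, the actin-bundling L-plastin, was at 31, 35.1, 91.8, 549 and 37.4 CPM. Tyrobp, the adaptor DAP12, was at 20.7, 31.3, 86.6, 393 and 7.94 CPM and Cd53, a tetraspanin, at 15.7, 17.1, 48.9, 209 and 18.9 CPM. The members with the highest means had another order. Arhgdib was at 1679, 1614, 1470.3, 1166 and 971 CPM and Laptm5, a lysosomal protein, at 1294, 1137, 536, 426 and 486 CPM. Itgb2, the leukocyte β2 integrin, was at 884, 716, 386, 414 and 363 CPM and Coro1a, an actin-binding protein, at 528, 435, 657, 580.03 and 431 CPM.

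Proliferation genes were lowest in library 8 for 17 of 18 genes and highest in 22 for 13, by both scalings, beside 25.6% of all genes lowest in 8 and 20.2% highest in 22 (28.3% and 32.2% by plain CPM). Mcm2, of the replicative helicase, was at 59.5, 83.9, 135, 187 and 229 CPM, Mcm5 at 56.8, 74.5, 145, 174 and 175 CPM and Rrm2, of ribonucleotide reductase, at 83.1, 87.8, 150.1, 177 and 155 CPM. Ccnb2, a mitotic cyclin, was at 54.4, 66.8, 113, 131 and 137 CPM. Libraries 14, 16 and 22 were above 8 and 10 for all of these. Among progenitor genes, Sox4 was at 114, 127, 62, 80.3 and 172 CPM, Mllt3 at 109, 194, 86.8, 37.5 and 56 CPM and Meis1 at 67.6, 127, 72.1, 33.4 and 86.8 CPM, while the stem cell factor receptor gene Kit was at 19.1, 20.9, 80.4, 93.4 and 69.8 CPM and Myb at 19.9, 24.3, 85.8, 104 and 129 CPM. Kit and Myb were low in 8 and 10, as the proliferation genes were, and Mllt3 had the order of the receptors by TMM. Immediate early genes, which can rise during cell dissociation, were not uniform: Klf6, Zfp36 and Junb were highest in 10, at 1936, 1901 and 1687 CPM, while Fos was lowest there, at 239 CPM, by TMM and by plain CPM. The list was highest in 8 by TMM and in 22 by plain CPM. The part of dissociation in these values was not tested.

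**Figure D4:**
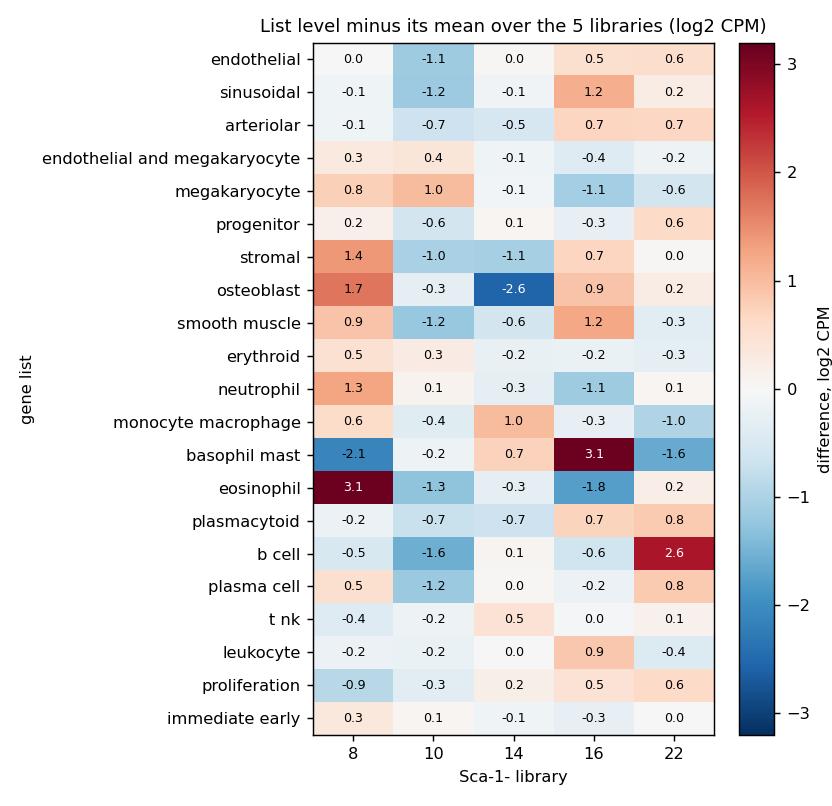
Level of each of 21 gene lists in the 5 Sca-1- libraries, as the difference in log2 CPM from the list's own mean (colour and printed value). The basophil and mast cell list stands out in 16, the B cell list in 22 and the eosinophil list in 8. The osteoblast list stands out in 14, as the lowest value, while the megakaryocyte list is high in 8 and 10.

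The most variable genes came from several lineages. Among 6034 genes with a mean of at least 20 CPM and over 3 counts in every library, the median SD of log2 CPM was 0.52. The 10 largest were Ngp (3.49), 6 genes of the basophil and mast cell list, Rgs1, Col2a1 and Col3a1. Those 6 genes were Cpa3 (3.40), Cd200r3 (3.15), Mcpt8 (3.14), Fcer1a (3.05), Prss34 (3.02) and Ms4a2 (2.94). Rgs1, a regulator of G protein signalling in leukocytes, was at 0.262, 16.8, 16.7, 22 and 72.8 CPM. Col2a1, the collagen of cartilage, was at 1716, 28.6, 70.4, 255 and 10.2 CPM. None of these 10 was an endothelial or megakaryocyte gene. The 10 smallest were Gnb1 (0.033), Cox14, Clic1, Snrnp25, Srpr, Ufm1, Cnot3, Bag6, Pfkm and Tmem167 (0.066), which encode a G protein subunit and housekeeping proteins among others. Their highest and lowest libraries differed by 1.07 to 1.13-fold after TMM scaling but by 1.82 to 2.05-fold in plain CPM, with 10 lowest for each of the 10. The levels above are relative to such genes.

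Against the Sca-1+ fraction, with all 9 libraries scaled together, the question was where this fraction stood for each cell list. Of 21 lists, 14 (66.7%) differed, 9 higher and 5 lower in the Sca-1- fraction, by an exact two-sided permutation test over all divisions of the 9 libraries into 5 and 4, adjusted over the 21 lists. The smallest p that this design allows is 0.00794. The megakaryocyte level was higher by 9.87 on the log2 scale (11.10 ± 0.91, n = 5, against 1.23 ± 0.48, n = 4, exact permutation adjusted p = 0.0152), with no overlap between the groups. Since these lists were chosen with earlier results known, this is a description of how far apart the fractions lay. The endothelial level was lower by 4.42 (4.11 ± 0.66 against 8.54 ± 0.072, exact permutation adjusted p = 0.0152), and the sinusoidal level was lower too (2.84 ± 0.82 against 5.01 ± 0.17, exact permutation adjusted p = 0.0278). The stromal level did not pass (4.38 ± 1.06 against 5.36 ± 0.87, lower by 0.97 in the mean, exact permutation adjusted p = 0.240). With log2 of the summed CPM its direction turned, to 2.65 higher in the Sca-1- fraction (exact permutation adjusted p = 0.0238). The genes known in both cell types did not pass (7.19 ± 0.36 against 7.26 ± 0.085, exact permutation adjusted p = 0.746). The 100 highest genes held 33.1% ± 6.23 of the counts against 23.8% ± 1.07 in the Sca-1+ libraries (SD, n = 5 and 4, exact permutation p = 0.0238). Left without any 1 of the 4 Sca-1+ libraries in turn, that difference stayed positive and its p was 0.0536 to 0.0714. Without any 1 of libraries 8, 10, 16 and 22, 12 lists had an unadjusted exact permutation p below 0.05 but an adjusted p of 0.05 at the lowest, so 0 passed, and without 14, 13 passed. Within the title prefixes that both fractions share, the endothelial difference was -3.98 and -4.04 and the megakaryocyte difference 8.78 and 8.93. Such a division allows no exact permutation p below 0.167. The opening numbers of the titles run separately in each fraction, so no difference given here can be told apart from that numbering.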

How the data were processed

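RNA from sorted marrow cells (CD45-, Ter119-, CD31+, then Sca-1- or Sca-1+) was extracted with the miRNeasy micro Kit, and libraries were made from 2 ng of total RNA with the SMART-Seq v4 kit, which does not mark strand and adds no molecular identifiers. The authors deposited read counts per gene, unnormalized. The submitters' processing notes name STAR, featureCounts and mm10. Versions and the strand setting are not given in the sources used here, so genes that overlap on opposite strands cannot be told apart. Groups came from the labels. Some title prefixes stand in both fractions, and what they mark is not stated. No label names the animal, so the spread between these samples may be technical. The exact permutation p-values are shares of the divisions of these libraries and do not extend to animals.

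Counts were scaled by TMM in edgeR 4.0.16 (R 4.3.3), over the 5 libraries and separately over all 9. A list's level was the mean log2 CPM of its members with a prior count of 2. A gene at or under 3 counts was taken to be at the floor. CPM per kb used annotated exon length. Lists were compared between fractions by an exact two-sided permutation test with Benjamini-Hochberg adjustment. All 352 list symbols were matched, 2 of them by identifier. The ranking and scaling were tested on simulated data. Their dispersion, the spread between libraries beyond counting error, was set lower than the 0.235 estimated in the Sca-1- libraries. That test therefore does not show how the ranking behaves at the spread of these libraries. Alternatives were other scalings (library size, upper quartile, DESeq2 1.42.0 size factors), other prior counts and filters, summed CPM and leaving out each library. Tables and figures were made in Python 3.11.15 with pandas 2.3.3, numpy 2.4.6 and matplotlib 3.10.9.

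The members and lists were chosen with earlier results of these data known. Genes were named by rule. These were the 5 markers, the genes of the sort and those the study names, the 20 highest by CPM and 10 per kb, the 4 highest of each list (8 in the endothelial, megakaryocyte, stromal and shared lists), the 10 most and 10 least variable genes, and list members at the floor. Further members, named to complete a receptor or to show a list's other pattern, were chosen after their values were seen. Some list members are not reported here by name.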

Additional observations from a re-analysis of the deposited data

Results flagged for a closer look

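Of 165 values looked at over the 5 libraries (each list's level and the named genes, in log2 CPM), 9 had 1 library far from the other 4, by the size of its gap to the nearest library against the whole range. Chance flags about 1 in 20 groups, close to the share seen here, so no pattern is read from their number. None of the 9 was a list, and 6 of them were low values in library 10.

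In the endothelial list, Cldn5, the claudin of tight junctions, was 3.90 in library 10 against 6.0 to 6.52 in the others. S1pr1 was 3.64 in library 10 against 5.35 to 5.97, and Ecscr was 3.21 against 5.11 to 5.40. The sinusoidal gene Flt4 was 0.98 in library 10 against 4.09 to 5.04. The arteriolar gene Fbln5 was 3.92 there against 5.24 to 5.55. The T cell kinase gene Lck was -0.70 in library 10 against 0.22 to 0.39, all near the floor.

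The other 3 values came from blood cell genes. Mpo, the neutrophil peroxidase, was 9.04 in library 14 against 6.39 to 7.14. Cd14, a monocyte receptor, was 4.35 in library 14 against 2.08 to 2.72. Rgs1 was -1.55 in library 8 against 4.07 to 6.19.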

How the results depend on the processing

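No paired analysis was run. The fractions share no replicate number, and the labels do not say which libraries came from the same sample. The test over all divisions treated the libraries as independent. Some title prefixes stand in both fractions. Comparing within these, an alternative added after seeing the data, gave a difference of -4.01 for the endothelial level and 8.86 for the megakaryocyte level, with an exact permutation p of 0.167, the smallest that its 6 divisions allow. Of 151 alternatives to 16 results, 127 kept their direction and call or moved by less than the spread between libraries, 9 moved, 14 lost their call and 1 turned its direction. Many of these could hardly change: levels averaged over the libraries, and differences between lists, barely depend on the scaling by construction. Taking log2 of the summed CPM gives most weight to a list's highest genes. It moved the endothelial level to 10.17, the megakaryocyte level to 15.92 and the stromal level to 13.55. The range of the megakaryocyte minus endothelial level became 1.44, and the stromal difference between Sca-1- and Sca-1+ turned to 2.65. Leaving out 1 library at a time, the range of the stromal minus endothelial level was 1.26 (without 8) to 2.47, and that of the megakaryocyte minus endothelial level 2.35 (without 10) to 3.77. The endothelial difference from Sca-1+ was -4.56 to -4.09 and the megakaryocyte difference 9.67 to 10.15, and the lists called numbered 0 to 14. The adjusted p of the endothelial and megakaryocyte levels was 0.05, at the threshold and not below it, without each of 8, 10, 16 and 22. The difference in the share of counts held by the 100 highest genes was 7.43 to 10.8 percentage points, and its p was above 0.05 without each of the Sca-1+ libraries. Leaving out Myct1 and Tspan18, chosen because both were highest in 10, gave a megakaryocyte minus endothelial range of 4.15, and turned library 10 from the highest in the endothelial list's summed CPM (1548) to the lowest (325). Low counts limit the arteriolar, eosinophil, plasmacytoid, plasma cell and T cell lists.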

Other observations

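Cartilage genes, a list written after the values of Col2a1 were seen, were highest in library 8. All 15 members (14 by plain CPM) were highest there, beside 14.4% of all genes (7.13% by plain CPM), though only 6 had over 3 counts in every library. Their summed CPM was 3126, 72.5, 170.3, 666 and 65.3 in libraries 8, 10, 14, 16 and 22. Library 16 was the next highest. Col2a1, the main collagen of cartilage, stood at 1716, 28.6, 70.4, 255 and 10.2 CPM. Comp, a matrix protein of cartilage and tendon, stood at 204, 9.91, 9.66, 48.2 and 13 CPM. Sox9, the chondrocyte transcription factor, stood at 37.0, 0.830, 5.74, 11.6 and 0.787 CPM.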
